A study of Mus musculus with 30 samples.

Results

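The genes described here make, break down or sense prostaglandins in the mouse uterus: Hpgds, Ptgds, Ptgs1, Ptgs2, Ptges, Ptgis, Hpgd, Ptger2, Ptger4 and Ptgfr. They were selected by name, as the probe sets annotated with 1 of these 10 symbols and no other, and Hpgds was selected on measured values, namely its fall under IGF1 that depended on genotype. Of the 10 genes, 9 had such a probe set, each of them 1, among 30142 genes measured. Ptgs1, the constitutive cyclooxygenase, is not analysed here. Since vehicle and IGF1 arrays chose Hpgds, its differences in those arrays are given as descriptions, and it was tested only among the estradiol arrays. Counts of called genes are over the 8 other members.

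RNA from the uteri of prepubertal female mice, 21 days old, was hybridised to 30 Affymetrix arrays, with 3 in each of 10 groups. The mice were wild type (WT) or Ex3aERKO (KO here), which lack estrogen receptor alpha (ERa) through a deletion of exon 3 in the whole animal, so that no single cell type is targeted. Vehicle mice of each genotype received 100 ul of saline intraperitoneally and were sampled at 24 h. Estradiol mice received 250 ng of estradiol (E2 below; prostaglandins are written PGE2, PGD2 and so on) in 100 ul of saline and were sampled at 2 h or at 24 h. IGF1 mice received 50 ug of insulin-like growth factor 1 in PBS, as 1 injection sampled at 2 h or as 3 injections at 0, 8 and 16 h sampled at 24 h. No vehicle was sampled at 2 h and none was given in PBS, so a change from vehicle at 2 h cannot be told apart from an effect of time since injection, nor an IGF1 change from that of PBS or repeated injection. The labels number the replicates without saying whether each is a separate animal, so the spread between replicates behind the p-values may be technical.

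Prostaglandins are local lipid signals. Phospholipases free arachidonic acid from membranes, cyclooxygenases (Ptgs1 and Ptgs2) turn it into PGH2, and terminal synthases convert PGH2 to PGE2 (Ptges), PGD2 (Hpgds and Ptgds) or prostacyclin (Ptgis). Hpgd, 15-hydroxyprostaglandin dehydrogenase, inactivates PGE2 and PGF2a after their uptake into cells, and the receptors Ptger2 and Ptger4 sense PGE2 while Ptgfr senses PGF2a. In the uterus the pathway is known for its part in implantation, decidualization, vascular permeability and contraction.

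Values are on the log2 scale, so 1 unit is a 2-fold difference, and levels were not compared between genes because each probe set responds differently. The background of an array was taken as the level that 95% of 1084 olfactory receptor genes did not exceed, and it lay between 5.65 and 6.55. Changes were tested with limma over all genes, and a gene was called at a Benjamini-Hochberg adjusted p below 0.05. The spread of a gene was estimated over all 10 groups together. Its standard error (SE) was therefore the same for any 2 groups compared, whatever their own spread. For Ptgs2 it was 0.33, while the standard deviation (SD) was 0.96 in KO IGF1 2 h and 0.08 in WT IGF1 24 h. Esr1, which encodes ERa, was lower on every KO array (9.38 to 10.41) than on every WT array (11.44 to 12.73), although its probe set may lie outside the deleted exon. The first WT vehicle replicate stood apart: Xist, the RNA of the inactive X chromosome, was at 10.16 there and between 17.01 and 18.12 on the other arrays, and this array had the lowest precision weight (0.166). The Y-linked genes Eif2s3y, Kdm5d and Uty were below background on it (5.39, 5.13 and 4.86 against 6.48), and whether the array or the sample is at fault could not be settled. Without it the calls of Ptgis at 2 h of E2 and Ptgds at 24 h of E2 in WT and of Ptger4 between genotypes under vehicle were lost, as given below, and Ptgfr was called lower in WT at 24 h of E2 (-0.79, limma adjusted p = 0.0293; -0.62 and 0.0556 with it). The second KO E2 24 h replicate had the next lowest weight (0.259) and the highest background (6.55). In the KO IGF1 2 h group the third replicate differed from the other 2 in several members, as given below. These are whole-tissue samples, in which fewer cells of a type and less RNA per cell cannot be told apart.

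The members responded to E2 at 2 h in WT uteri: Ptges rose 11.4-fold and Ptgis 1.79-fold while the breakdown enzyme Hpgd fell 8.05-fold and the receptors Ptger4 and Ptgfr fell 2.63-fold and 3.62-fold. These were 5 of the 8 members, where 19% of all genes were called. In WT at 24 h of E2, 1 of 8 was called against 30.1% of all genes, and from 2 h to 24 h of E2 in WT 5 of 8 were called against 27.4%. In KO uteri none of the 8 members was called at 2 h of E2 (0.365% of all genes called) or at 24 h of E2 (0% called). At 24 h 3735 genes had an unadjusted p below 0.05. None of the 8 reached an unadjusted p below 0.05 in either comparison in limma. From 2 h to 24 h of E2 in KO none of the 8 was called either, none of them had an unadjusted p below 0.05, and 9.42% of all genes were called. Hpgds, which is not among the 8, was called higher there (3.03, limma adjusted p = 0.00133).

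IGF1 at 2 h changed 3 of 8 members in WT (17.2% of all genes) and 3 of 8 in KO (7.13%). Ptges and Ptgfr were called in each genotype, Hpgd in WT and Ptgs2 in KO. The changes of Hpgd and Ptgs2 were not called different between the genotypes (KO minus WT 1.12 and 1.64, limma adjusted p = 0.858 and 0.49). None was called at 24 h of IGF1 in WT (1 at an unadjusted p below 0.05; 4.28% of all genes called) and 1 was called in KO (13.6%). From 2 h to 24 h of IGF1, 2 were called in WT (14.5%) and 2 in KO (8.98%).

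Between genotypes, 2 of 8 members differed under vehicle (2.92% of all genes), 6 at 2 h of E2 (17.9%), 4 at 24 h of E2 (47%), 2 at 2 h of IGF1 (1.95%) and 1 at 24 h of IGF1 (2.86%). The change from vehicle differed between the genotypes for 4 of 8 members at 2 h of E2 (8%). It was not called different for any member at 24 h of E2 (2 at an unadjusted p below 0.05; 22.1% of all genes called), at 2 h of IGF1 (1 at an unadjusted p below 0.05; 0.0133%) or at 24 h of IGF1 (none at an unadjusted p below 0.05; 0.00664%). The change from 2 h to 24 h of E2, a comparison added after the values were seen, differed between genotypes for 4 of 8 members (29.3%). E2 and IGF1 differed directly for 2 of 8 members in WT at 2 h (5.57%), 1 in WT at 24 h (10.1%), 1 in KO at 2 h (3.04%) and none in KO at 24 h (1 at an unadjusted p below 0.05; 21.5%). The share of members called at 24 h of E2 between genotypes lay close to the background share of all genes. The same held at 24 h of IGF1 in KO against vehicle (13.6%) and for E2 against IGF1 at 24 h in WT (10.1%). These counts say little about these genes. The lack of calls in KO at 2 h and 24 h of E2, where 0.365% and 0% of all genes were called, says as little.

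**Figure D1:**
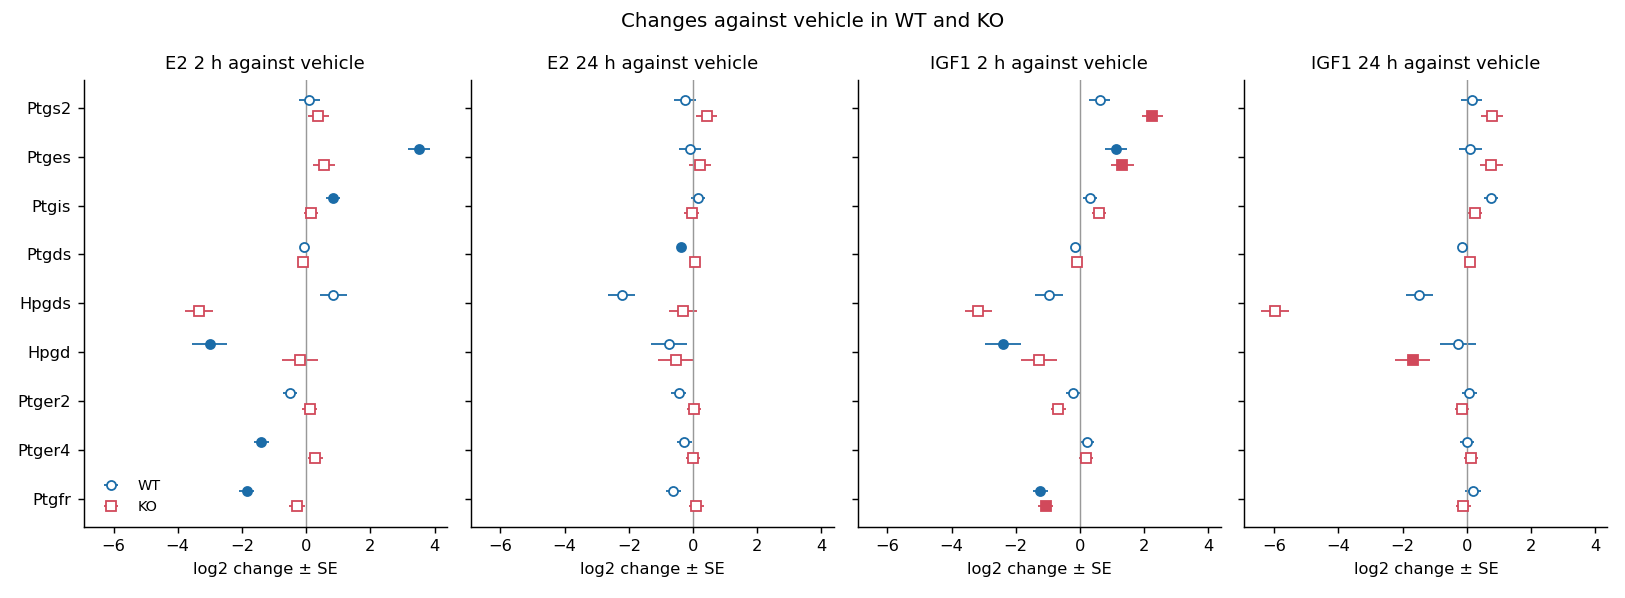
Log2 change from vehicle of the same genotype with its standard error for the 9 measured genes, in WT (circles) and KO (squares), by treatment and time. Filled symbols passed the test at an adjusted p below 0.05; Hpgds is drawn open because it was not tested against vehicle. At 2 h of E2 the WT symbols for Ptges, Ptgis, Hpgd, Ptger4 and Ptgfr are filled and no KO symbol is.

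Hpgds encodes the glutathione-dependent synthase of PGD2, an enzyme best known from mast cells and other hematopoietic cells. Its 10 group means spanned 5.98 log2 units, the 25th largest span of 30142 genes (0.0829%), a value that includes the arrays that chose it. The 250 bases before its transcription start are shown because it is the gene with the widest range (RefSeq, GRCm38.p6, minus strand, chr6:65144731-65144980, 5′ to 3′).

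Hpgds: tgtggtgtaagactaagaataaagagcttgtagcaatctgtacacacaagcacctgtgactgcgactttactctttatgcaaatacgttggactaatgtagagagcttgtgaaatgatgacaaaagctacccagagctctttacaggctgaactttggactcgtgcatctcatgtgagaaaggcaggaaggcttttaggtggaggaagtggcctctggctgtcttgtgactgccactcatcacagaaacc

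Hpgds was high in KO uteri under vehicle and at 24 h of E2, and low in KO uteri at 24 h of IGF1. In KO vehicle uteri it was 12.96, 13.46 and 11.93, and in WT vehicle uteri 9.77, 9.12 and 9.58. The groups did not overlap, and the KO mean (12.78 ± 0.78, SD, n = 3) was 3.29 above the WT mean (9.49 ± 0.33). After 24 h of IGF1 the KO arrays read 6.97, 6.65 and 6.78, which is 5.98 below KO vehicle or 63.2-fold. The WT arrays read 7.47, 8.68 and 7.89 at that time, 1.48 below WT vehicle. KO therefore had the highest group mean under vehicle and the lowest group mean after 24 h of IGF1, all of its arrays there lying below every WT array of that treatment but above background. At 2 h of IGF1 the fall in KO was 3.16, with arrays at 8.81, 9.13 and 10.93, and in WT it was 0.95, with arrays at 8.72, 8.82 and 8.06. The third KO replicate was thus above the other 2 of its group. These differences selected the gene and carry no test.

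Under E2, which the selection did not use, Hpgds moved in opposite directions with time. In WT it read 10.10, 10.57 and 10.35 at 2 h and 7.36, 6.99 and 7.45 at 24 h, a fall of 3.07 ± 0.43 (SE; limma adjusted p = 5.53e-06). In KO it read 10.08, 8.73 and 9.53 at 2 h and 12.63, 12.27 and 12.52 at 24 h, a rise of 3.03 ± 0.43 (limma adjusted p = 0.00133). No array of 1 time overlapped the other time in either genotype. The KO rise was not called when only the compared groups were fitted (limma adjusted p = 0.0984). The time course differed between the genotypes by 6.10 ± 0.61 (limma adjusted p = 1.29e-07), in a comparison chosen after the values were seen. At 24 h of E2 Hpgds was 5.21 ± 0.43 higher in KO than in WT, a 37.0-fold difference (limma adjusted p = 3.01e-09), and no array of the groups overlapped. At 2 h of E2 the KO mean was 0.89 ± 0.43 below the WT mean and the difference was not called (limma adjusted p = 0.186). As a description, E2 at 2 h moved Hpgds by 0.85 above vehicle in WT and by -3.34 in KO, and at 24 h by -2.22 in WT and -0.31 in KO, where the arrays overlapped those of KO vehicle.

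Ordered by mean, Hpgds ran from KO vehicle (12.78) and KO E2 24 h (12.47), whose arrays overlapped, to WT E2 2 h (10.34), KO IGF1 2 h (9.62), WT vehicle (9.49), KO E2 2 h (9.45), WT IGF1 2 h (8.54), WT IGF1 24 h (8.01), WT E2 24 h (7.27) and KO IGF1 24 h (6.80). The step from KO E2 24 h to WT E2 2 h was 2.14, with no overlap of arrays. From WT E2 2 h down to WT IGF1 24 h each group overlapped the next in its arrays. The lowest 3 groups did not overlap 1 another, with steps of 0.75 and 0.46.

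Values of cell type markers are given beside Hpgds. Of 10 mast cell markers, Tpsab1, Ms4a2 and Fcer1a, the last 2 of them chains of the IgE receptor, were not above background in any group, and the mean level of the list lay between 6.49 (WT E2 24 h) and 7.10 (KO IGF1 2 h). In KO, 1 of the 10 rose at 2 h of E2 (list median -0.11), 2 at 2 h of IGF1 (0.13) and 2 at 24 h of IGF1 (-0.07). None fell in these comparisons, and from 2 h to 24 h of E2 none rose and 2 fell (0.35). Of all genes, 0.365%, 7.13%, 13.6% and 9.42% were called in these comparisons, in that order. Hdc, the histamine-forming enzyme, had the largest called change of the list in each of these: it rose by 3.33 at 2 h of E2 (limma adjusted p = 0.00111), by 2.91 at 2 h of IGF1 (limma adjusted p = 0.00102) and by 2.93 at 24 h of IGF1 (limma adjusted p = 0.000239), and fell by 3.05 from 2 h to 24 h of E2 (limma adjusted p = 0.00212). With only the compared groups fitted, no gene was called in KO at 2 h of IGF1, so that Hdc call was lost. That fit called 7 of all genes at 2 h of E2 and 4 from 2 h to 24 h of E2 in KO, against 110 and 2839. Between KO and WT vehicle, where 2.92% of all genes were called, none of 10 macrophage markers was called. Their list means were 7.49 to 8.22 on the KO arrays and 8.41 to 8.66 on the WT arrays, which did not overlap. Of 13 epithelial markers 6 were higher and none lower in KO vehicle than in WT vehicle, with list means of 9.67 to 9.99 on the KO arrays and 8.63 to 9.06 on the WT arrays. Under IGF1 at 24 h in KO 3 of the epithelial markers rose and none fell, and of 11 stromal markers 8 rose and 1 fell (13.6% of all genes called). Between KO and WT at 24 h of E2, where Hpgds was 37.0-fold higher in KO, 8 of 11 stromal, 7 of 10 smooth muscle and 7 of 13 epithelial markers were lower in KO and none of these lists had a higher one. Of all genes 47% were called there, and the epithelial count lay near that share. The part of these cell types in the level of Hpgds was not tested.

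Ptgdr encodes the PGD2 receptor DP1 and is 1 of the other pathway genes listed for this work. Its KO vehicle arrays read 10.12, 7.92 and 8.18 and its WT vehicle arrays 6.75, 5.20 and 5.80, of which 1 was above background. The difference was 2.82 ± 0.55 (limma adjusted p = 0.00337) and the groups did not overlap. In KO it fell at 2 h of IGF1 by 2.16 (limma adjusted p = 0.0182; arrays at 5.35, 6.25 and 8.15, which overlap vehicle) and at 24 h of IGF1 by 1.75 (limma adjusted p = 0.0349; 6.33, 7.51 and 7.13). With only the compared groups fitted, no gene was called in KO at 2 h of IGF1, so that call of Ptgdr was lost. At 24 h of E2 the KO arrays of Ptgdr read 8.28, 9.10 and 8.32 and no WT array was above background, so KO was at least 7.05-fold higher (limma adjusted p = 8.22e-05). The other PGD2 receptor gene, Ptgdr2 (CRTH2), behaved differently, rising in WT at 24 h of E2 by 0.99 (limma adjusted p = 0.000137) and being 0.94 lower in KO at that time (limma adjusted p = 0.000178).

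**Figure D2:**
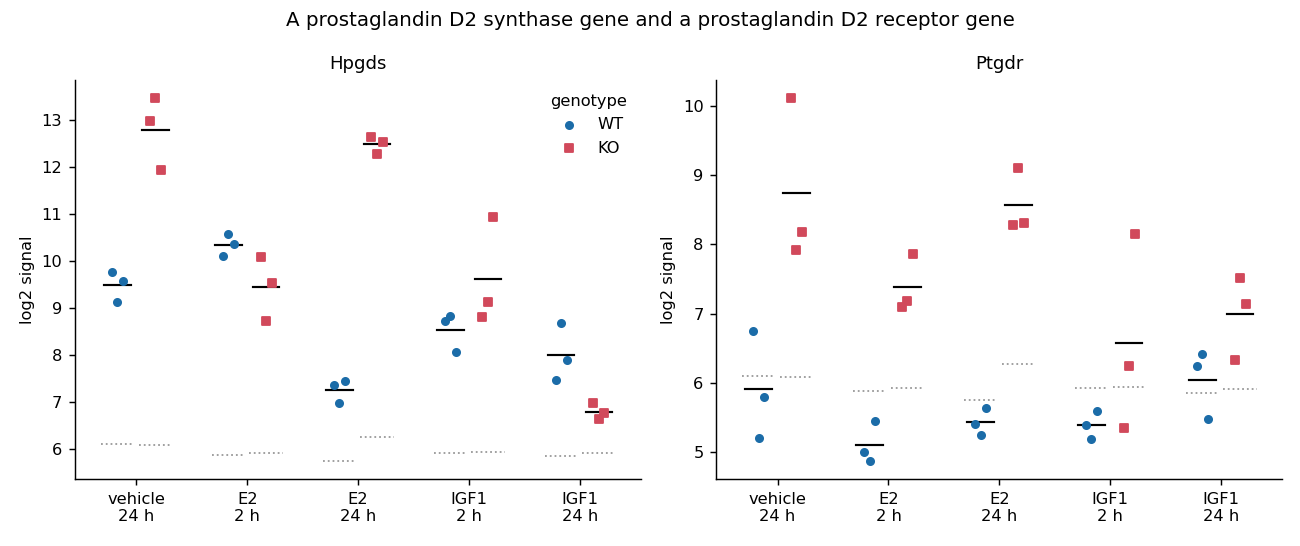
Log2 signal of Hpgds and Ptgdr on each of 30 arrays by treatment, for WT (circles) and KO (squares); black bars are group means and dotted lines the mean background of each group. Hpgds in KO falls from 12.78 under vehicle to 6.80 at 24 h of IGF1 and lies at 12.47 at 24 h of E2, and Ptgdr is above background on every KO vehicle array.

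Ptgds, the lipocalin-type PGD2 synthase, lay at or near background in every group, with array values of 5.76 to 6.48 and group means that spanned 0.38. It was called lower by 0.38 ± 0.12 in WT at 24 h of E2 (limma adjusted p = 0.0212; 5.93, 5.76 and 5.87 against 6.48, 6.03 and 6.19), but 0.25 lower and not called without the first WT vehicle replicate (limma adjusted p = 0.151), and not called without the second WT E2 24 h replicate (0.33 lower, limma adjusted p = 0.0822). Values so close to background give no reliable order.

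Ptges encodes the inducible microsomal synthase that makes PGE2. Among the members it had the second widest span of group means, 3.61, and it was the gene with the sharpest early response to E2. The 250 bases before its start (RefSeq, GRCm38.p6, minus strand, chr2:30903298-30903547) are shown with the matches of the motifs searched in capitals.

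Ptges: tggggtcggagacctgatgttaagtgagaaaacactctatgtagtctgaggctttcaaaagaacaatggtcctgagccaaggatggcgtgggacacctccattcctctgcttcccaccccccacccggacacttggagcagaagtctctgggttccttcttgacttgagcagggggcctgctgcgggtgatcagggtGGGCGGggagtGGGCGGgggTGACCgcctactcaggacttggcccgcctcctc

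The capitals are 2 copies of GGGCGG, a GC box, and TGACC, the reverse strand of the estrogen response element half-site GGTCA. The motifs were chosen with earlier results known and were searched on both strands in the 250 bases before the start; they do not overlap here. They were the full estrogen response element (GGTCA, 3 bases of any kind and TGACC), its half-site GGTCA, the FoxO site GTAAACA, the GC box GGGCGG, the E-box CACGTG and the cAMP response element TGACGTCA. Among 32851 RefSeq promoters, 35.2% held GGTCA, 32.7% held GGGCGG, 6.02% held CACGTG, 3.17% held GTAAACA, 1.55% held TGACGTCA and 0.0639% held the full element. Of the 8 members with a RefSeq entry, Ptges and Ptgfr held 1 GGTCA each, Ptgs2, Hpgd and Ptgfr 1 GGGCGG each and Ptger4 4, and the windows of Hpgds, Ptgds and Ptger2 held none of the 6 motifs. A match describes letters in this window and is not evidence of a bound factor.

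In WT vehicle uteri Ptges read 6.93, 6.62 and 6.79, and 2 h after E2 it read 10.46, 10.20 and 10.24. Every E2 array was more than 3 units above every vehicle array, and the rise was 3.52 ± 0.35 (limma adjusted p = 7.69e-08). The arrays at 24 h read 6.59, 6.82 and 6.66 a fall of 3.61 ± 0.35 (limma adjusted p = 2.34e-08) from 2 h. In KO uteri 2 h of E2 gave 7.80, 7.94 and 6.79 against 6.87, 6.99 and 7.02 under vehicle, a difference of 0.55 ± 0.35 that was not called (limma adjusted p = 0.539). KO minus WT, the 2 h change differed by -2.96 ± 0.50 (limma adjusted p = 0.000331), and at 2 h of E2 the KO level was 6.92-fold lower than the WT level (limma adjusted p = 2.5e-06).

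IGF1 gave a rise of Ptges at 2 h in both genotypes, smaller than that of E2 in WT and with wide spread. The WT arrays read 7.44, 8.84 and 7.42, a rise of 1.12 ± 0.35 (limma adjusted p = 0.028), and the KO arrays 9.23, 8.04 and 7.56, a rise of 1.32 ± 0.35 (limma adjusted p = 0.0225). Without the second WT replicate the rise was 0.65 (limma adjusted p = 0.232), and without the first KO replicate it was 0.84 (limma adjusted p = 0.247). It was also not called without the second or the third WT vehicle replicate (limma adjusted p = 0.0762 and 0.0592), nor without the first, second or the third KO vehicle replicate (limma adjusted p = 0.0693, 0.0613 and 0.0519). With only the compared groups fitted neither rise was called (limma adjusted p = 0.112 in WT and 0.318 in KO). The response to IGF1 at 2 h differed between the genotypes by 0.20 ± 0.50, which was not called. At 24 h of IGF1 the KO arrays read 7.55, 7.71 and 7.90. They lay 0.76 ± 0.35 above KO vehicle and 0.83 ± 0.35 above WT at that time, with no overlap. Neither was called (limma adjusted p = 0.167 and 0.264), but both were with only the compared groups fitted (limma adjusted p = 0.0145 and 0.0266). The response at 24 h differed between the genotypes by 0.65 ± 0.50, not called (limma adjusted p = 0.883). In WT, E2 gave a level 5.28-fold above that of IGF1 at 2 h (limma adjusted p = 4.24e-05), and the arrays of the treatments did not overlap. In KO, E2 gave a level 0.77 ± 0.35 below that of IGF1 at 2 h, which was not called (limma adjusted p = 0.294), and the arrays overlapped.

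Ptgs2 is the inducible cyclooxygenase that supplies PGH2 to these synthases. In WT it lay near background: none of the vehicle arrays (6.27, 5.75 and 5.58) was above it, and the E2 arrays at 2 h read 6.28, 5.79 and 5.82. No change of Ptgs2 under E2 was called in WT at either time. In KO uteri Ptgs2 was 5.59, 6.28 and 6.87 under vehicle and 8.19, 9.58 and 7.73 at 2 h of IGF1, a 4.76-fold rise of 2.25 ± 0.33 (limma adjusted p = 0.000516) with no overlap. At 24 h of IGF1 it read 6.90, 6.95 and 7.23, a fall of 1.47 ± 0.33 from 2 h (limma adjusted p = 0.00621) that was not called without the second KO IGF1 2 h replicate (a fall of 0.93, limma adjusted p = 0.0568). These arrays all lay above those of vehicle, by 0.78 ± 0.33 in the mean, which was not called (limma adjusted p = 0.128) but was without the third KO vehicle replicate (1.09, limma adjusted p = 0.0438). The WT arrays at 2 h of IGF1 read 6.21, 6.45 and 6.78, and KO was 2.02 ± 0.33 higher there (limma adjusted p = 0.00109). The change from vehicle itself was 1.64 ± 0.47 larger in KO, which was not called (limma adjusted p = 0.49). In KO at 2 h, E2 gave a level 1.87 ± 0.33 below that of IGF1 (limma adjusted p = 0.00609), or 1.33 below and not called without the second IGF1 replicate (limma adjusted p = 0.0591). With only the compared groups fitted, the calls at 2 h of IGF1 were lost (limma adjusted p = 0.295 against vehicle and 0.208 against WT), as were those against E2 and 24 h of IGF1 (limma adjusted p = 0.547 and 0.166). Ptgs2 at 24 h of E2 was 1.05 ± 0.33 higher in KO than in WT (limma adjusted p = 0.0133). The arrays read 6.60, 6.54 and 6.86 against 5.47, 5.85 and 5.54, of which 2 in KO and 1 in WT were above background. The mean background itself was 6.27 in KO and 5.75 in WT. Under quantile normalization the difference was 0.86 and not called (limma adjusted p = 0.0597).

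Ptgis, prostacyclin synthase, rose in WT at 2 h of E2 from 7.81, 7.92 and 8.34 to 8.65, 8.66 and 9.28, by 0.84 ± 0.23 (limma adjusted p = 0.00953). The groups did not overlap, but the rise was not called without the first WT vehicle replicate (0.73, limma adjusted p = 0.0516) or without the third E2 replicate (0.63, limma adjusted p = 0.085). The KO arrays at that time read 7.94, 8.17 and 7.66 and lay 0.94 ± 0.23 below WT (limma adjusted p = 0.00415). KO minus WT, the response itself differed by -0.69 ± 0.32, which was not called (limma adjusted p = 0.241). From 2 h to 24 h of E2 Ptgis fell by 0.68 ± 0.23 in WT (limma adjusted p = 0.0264), and was not called without the third 2 h replicate (0.48 lower, limma adjusted p = 0.18) or the first 24 h replicate (0.55 lower, limma adjusted p = 0.129). At 24 h of IGF1 in WT it read 9.0, 8.75 and 8.57, which was 0.75 ± 0.23 above vehicle and not called (limma adjusted p = 0.0631).

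Hpgd, the enzyme that inactivates PGE2 and PGF2a, fell in WT at 2 h of both treatments. Its vehicle arrays read 11.12, 12.42 and 12.21, and 2 h after E2 it read 8.95, 8.99 and 8.78, a fall of 3.01 ± 0.56 (limma adjusted p = 0.000296). It read 10.88, 11.47 and 11.15 at 24 h, a rise of 2.26 ± 0.56 from 2 h (limma adjusted p = 0.00299). IGF1 also lowered it in WT at 2 h, to 9.91, 8.74 and 9.90, by 2.40 ± 0.56 (limma adjusted p = 0.00334), and at 24 h it read 11.88, 11.86 and 11.18, a rise of 2.12 ± 0.56 from 2 h (limma adjusted p = 0.0102) that was not called without the second WT IGF1 2 h replicate (1.73, limma adjusted p = 0.0751). A difference between the treatments at 2 h in WT was not called (0.61 ± 0.56 lower under E2, limma adjusted p = 0.763).

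No change of Hpgd at 2 h of E2 was called in KO: the arrays read 12.47, 11.10 and 11.31 at 2 h against 11.11, 11.66 and 12.67 under vehicle, and overlapped (-0.19 ± 0.56, limma adjusted p = 0.916). Hpgd was 6.57-fold higher in KO than in WT at 2 h of E2 (limma adjusted p = 0.000883), and the change from vehicle differed by 2.82 ± 0.79 (limma adjusted p = 0.0257). The difference between the changes kept its direction but was not called when any of 7 of the 12 arrays was left out, with values of 2.40 to 2.84 and limma adjusted p of 0.0513 to 0.0791; those were the first KO E2 2 h replicate, the first and the third WT E2 2 h replicates, the first and second KO vehicle replicates and the second and the third WT vehicle replicates. Under IGF1 the KO arrays at 2 h were far apart, at 10.15, 9.11 and 12.34, so a mean fall of 1.28 ± 0.56 was not called (limma adjusted p = 0.186); without the third replicate it was 2.18 (limma adjusted p = 0.0025). KO arrays at 24 h of IGF1 read 9.83, 10.52 and 10.03, a fall of 1.69 ± 0.56 from vehicle (limma adjusted p = 0.0442) with no overlap. That call sits at the threshold: it was lost when any IGF1 array or the second or the third vehicle array was left out, with falls of 1.26 to 1.89 and limma adjusted p of 0.0605 to 0.196. It was also lost after centring each array on its median (limma adjusted p = 0.0606).

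**Figure D3:**
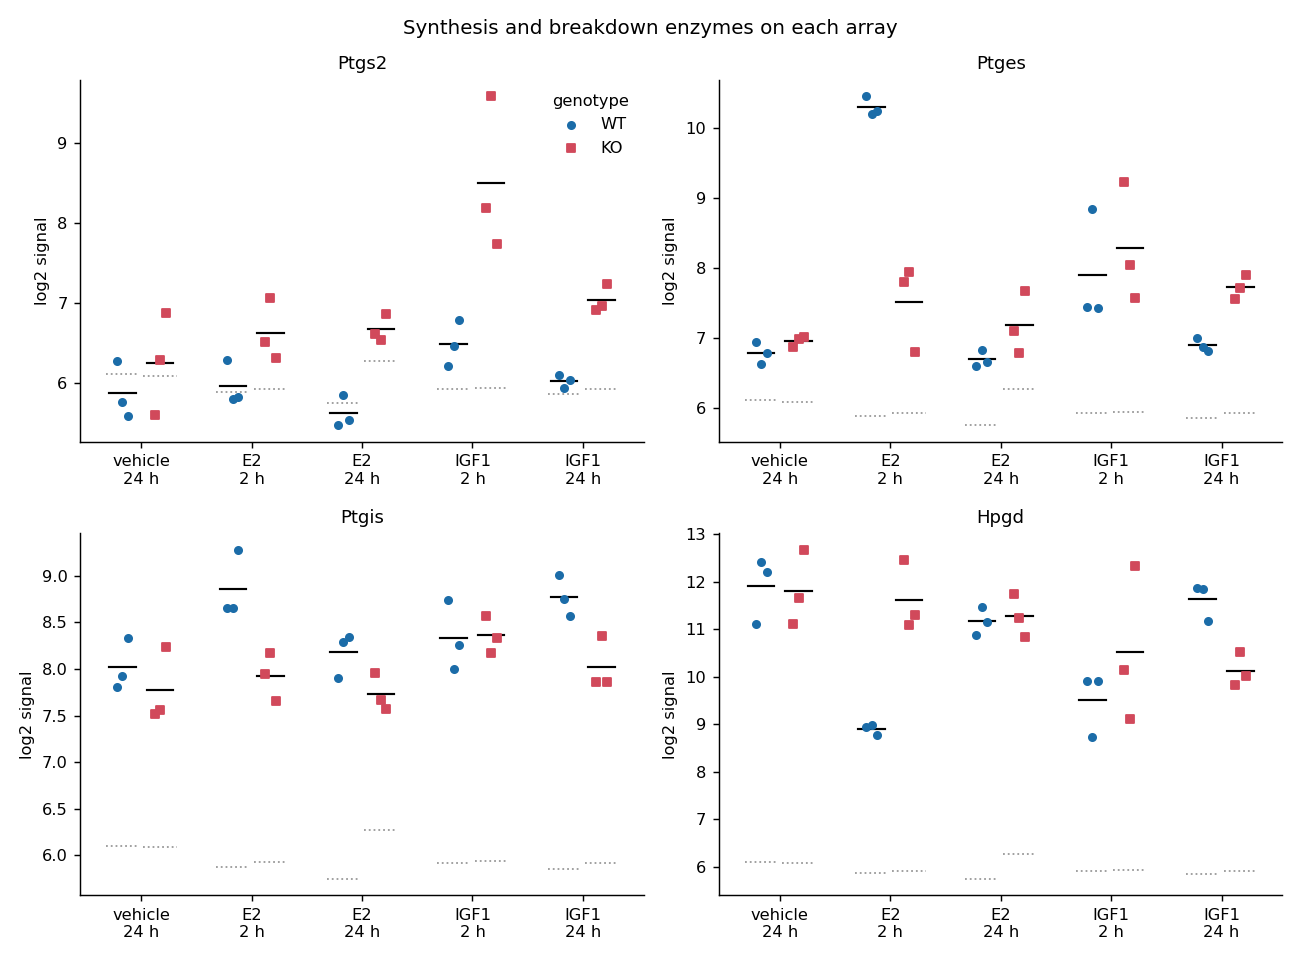
Log2 signal of Ptgs2, Ptges, Ptgis and Hpgd on each of 30 arrays by treatment, for WT (circles) and KO (squares); black bars are group means and dotted lines the mean background of each group. In WT at 2 h of E2 Ptges stands at 10.30 and Hpgd at 8.91, and Ptgs2 is highest in KO at 2 h of IGF1 (8.50).

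Ptger2, the cAMP-coupled PGE2 receptor EP2, differed by genotype in every condition. Under vehicle the KO arrays read 9.13, 8.80 and 8.32 and the WT arrays 7.60, 6.90 and 6.90, a difference of 1.62 ± 0.23 (limma adjusted p = 0.000161). The difference was 2.23 ± 0.23 at 2 h of E2 (limma adjusted p = 1.13e-07) and 2.09 ± 0.23 at 24 h of E2 (limma adjusted p = 1.64e-07). It was 1.17 ± 0.23 at 2 h of IGF1 (limma adjusted p = 0.00529) and 1.39 ± 0.23 at 24 h of IGF1 (limma adjusted p = 0.000925). In all 5 conditions the lowest KO array lay above the highest WT array, and over all conditions KO ranged from 7.77 to 9.13 and WT from 6.51 to 7.60. With only the compared groups fitted, the calls under vehicle and at 2 h of IGF1 were lost (limma adjusted p = 0.0573 and 0.184). No treatment led to a called change of Ptger2 from vehicle in either genotype. The KO arrays at 2 h of IGF1 were 0.67 ± 0.23 lower (limma adjusted p = 0.079) and overlapped vehicle. That fall was called without the third IGF1 replicate (0.91, limma adjusted p = 0.0108) or the third KO vehicle replicate (0.88, limma adjusted p = 0.0363). It was also called under quantile normalization (0.76, limma adjusted p = 0.0494). Leaving out 1 array at a time gave falls of 0.48 to 0.91 (limma adjusted p of 0.0108 to 0.404). Of 13 epithelial markers, 6 were higher and none lower in KO under vehicle (2.92% of all genes called). At 2 h of E2 9 were higher and 1 lower (17.9%), and at 24 h of E2 none higher and 7 lower (47%). Under IGF1 4 were higher and none lower at 2 h (1.95%), and 5 higher and none lower at 24 h (2.86%). Their part in the Ptger2 difference was not tested.

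Ptger4, the other cAMP-coupled PGE2 receptor (EP4), fell in WT at 2 h of E2 from 8.73, 8.85 and 9.05 to 7.62, 7.34 and 7.48, by 1.39 ± 0.22 (limma adjusted p = 6.35e-05). At 24 h it read 8.72, 8.38 and 8.71, a rise of 1.13 ± 0.22 from 2 h (limma adjusted p = 0.000404). Under IGF1 at 2 h it read 9.25, 9.01 and 9.0 in WT, with no called change, and E2 gave a level 1.61 ± 0.22 below that of IGF1 (limma adjusted p = 2.39e-05), with no overlap. In KO it read 7.97, 8.48 and 8.57 at 2 h of E2 and 7.56, 8.36 and 8.26 under vehicle. The change differed between the genotypes by 1.68 ± 0.32 (limma adjusted p = 0.00118), and KO was 0.86 ± 0.22 higher at 2 h of E2 (limma adjusted p = 0.0074).

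The order of the genotypes under vehicle and at 24 h of E2 was the opposite of that at 2 h of E2. Ptger4 was 0.82 ± 0.22 lower in KO than in WT under vehicle (limma adjusted p = 0.0466) and 0.55 ± 0.22 lower at 24 h of E2 (limma adjusted p = 0.0479), where the arrays overlapped. The vehicle difference was not called without the first KO vehicle replicate (0.57 lower, limma adjusted p = 0.293), the first WT vehicle replicate (0.89 lower, limma adjusted p = 0.0609), the second (0.83 lower, limma adjusted p = 0.0969) or the third (0.73 lower, limma adjusted p = 0.181). The difference at 24 h of E2 was not called without the second or the third KO replicate (0.43 and 0.49 lower, limma adjusted p = 0.19 and 0.116), or the first or the third WT replicate (0.49 and 0.50 lower, limma adjusted p = 0.128 and 0.126), and under quantile normalization it was 0.31 (limma adjusted p = 0.322). With only the compared groups fitted, neither was called (limma adjusted p = 0.257 under vehicle and 0.0553 at 24 h of E2). Under IGF1 Ptger4 was 0.84 lower in KO at 2 h (limma adjusted p = 0.0515) and 0.70 lower at 24 h (limma adjusted p = 0.105), neither called.

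Ptgfr, the PGF2a receptor FP that couples to calcium and contraction, fell at 2 h under E2 and under IGF1. In WT it read 7.61, 8.23 and 8.04 under vehicle and 6.19, 6.28 and 5.86 at 2 h of E2, a 3.62-fold fall of 1.85 ± 0.24 (limma adjusted p = 4.02e-06) that took 1 of the 3 arrays to background. At 2 h of IGF1 it read 6.79, 6.50 and 6.89 in WT, a fall of 1.24 ± 0.24 (limma adjusted p = 0.000714). By 24 h it had risen again, by 1.24 ± 0.24 under E2 (limma adjusted p = 0.000312) and by 1.43 ± 0.24 under IGF1 (limma adjusted p = 0.000225). Against vehicle it was 0.62 lower at 24 h of E2 and 0.20 higher at 24 h of IGF1, neither called. The lower E2 level was called under quantile normalization (0.69, limma adjusted p = 0.0348), with array weights (0.72, limma adjusted p = 0.00129) and with only the compared groups fitted (limma adjusted p = 0.0463). At 24 h the E2 arrays (7.31, 7.31 and 7.41) lay 0.82 ± 0.24 below the IGF1 arrays (8.31, 8.14 and 8.03; limma adjusted p = 0.03). That call was lost without any of 5 of the 6 arrays, all but the third IGF1 replicate, with differences of 0.74 to 0.85 and limma adjusted p of 0.0688 to 0.102, and after centring on array medians (limma adjusted p = 0.0588).

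No change of Ptgfr at 2 h of E2 was called in KO (7.26, 7.72 and 7.71 against 7.78, 7.62 and 8.16; -0.29 ± 0.24, limma adjusted p = 0.651), and the change differed from that in WT by 1.57 ± 0.34 (limma adjusted p = 0.00432). It fell in KO at 2 h of IGF1, to 6.52, 6.22 and 7.61, by 1.07 ± 0.24 (limma adjusted p = 0.00873). The fall was 0.94 and not called without the first IGF1 replicate (limma adjusted p = 0.0835), 0.79 and not called without the second (limma adjusted p = 0.0708), and not called with only the compared groups fitted (limma adjusted p = 0.331). Without the third IGF1 replicate, the one at 7.61, the fall was 1.48 (limma adjusted p = 1.18e-05). The rise from 2 h to 24 h of IGF1 in KO was 0.96 ± 0.24 (limma adjusted p = 0.0128) and its arrays overlapped. It was not called without the first (0.83) or second (0.68) 2 h replicate or the first 24 h replicate (0.87), with limma adjusted p of 0.063, 0.112 and 0.0567, nor with only the compared groups fitted (limma adjusted p = 0.225). Without the third 2 h replicate the rise was 1.37 (limma adjusted p = 5.56e-05). Ptgfr in KO was 0.61 ± 0.24 above WT at 24 h of E2 (limma adjusted p = 0.0399), and there the median over all genes was 0.18 higher in KO and 0.02 after centring. After centring Ptgfr was 0.45 higher and not called (limma adjusted p = 0.17), and leaving out any of 5 of the 6 arrays, all but the third KO replicate, also ended the call (0.52 to 0.65, limma adjusted p of 0.0672 to 0.117).

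**Figure D4:**
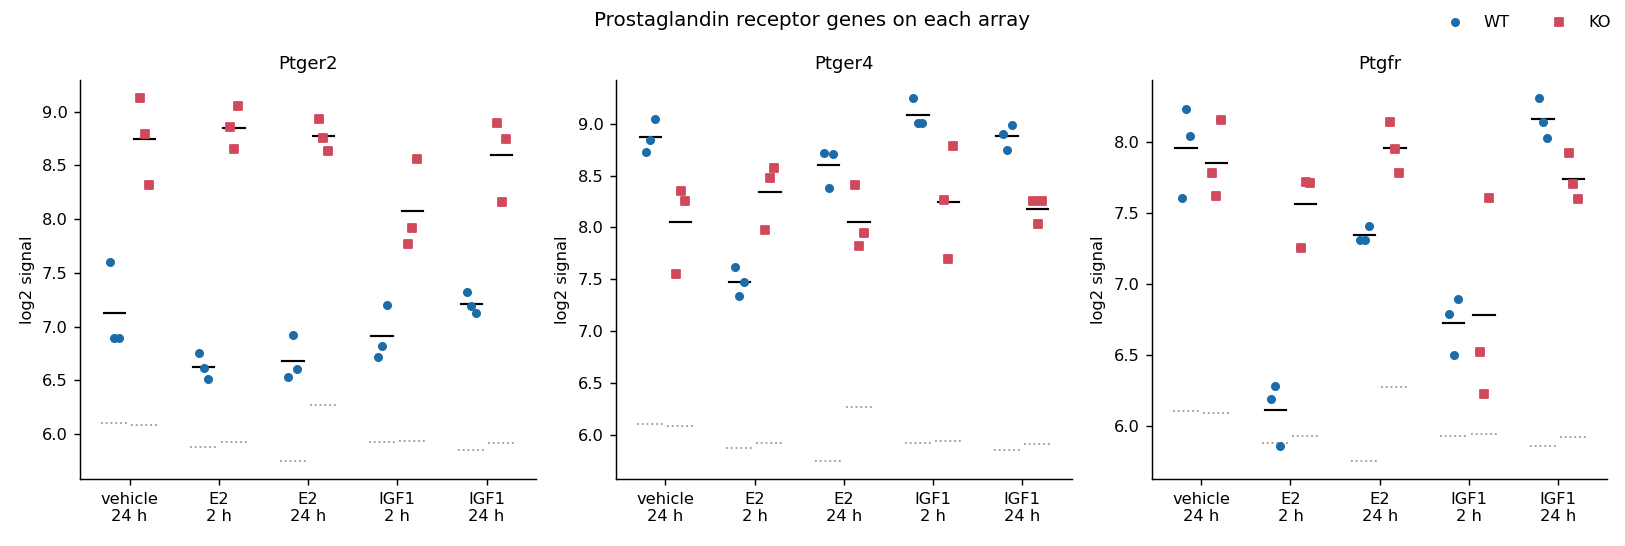
Log2 signal of Ptger2, Ptger4 and Ptgfr on each of 30 arrays by treatment, for WT (circles) and KO (squares); black bars are group means and dotted lines the mean background of each group. Every KO array of Ptger2 lies above the WT arrays of its condition, and Ptger4 and Ptgfr in WT are lowest at 2 h of E2 (7.48 and 6.11).

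Tissue markers moved beside these genes at 2 h of E2. Of 11 stromal markers 7 fell in WT and none rose, where 19% of all genes were called. The list means were 9.75 to 9.83 on the E2 arrays against 10.69 to 11.16 under vehicle. Among the stromal markers Col3a1 fell by 2.41 (limma adjusted p = 2.31e-06) and Hoxa11 by 1.94 (limma adjusted p = 2.2e-05). Of 13 epithelial markers 3 rose, of 10 smooth muscle markers 1 fell, and no macrophage marker was called. The epithelial count lay near the share of all genes. In KO at 2 h of E2 no stromal, epithelial, smooth muscle or macrophage marker was called (0.365% of all genes called). All epithelial, stromal and smooth muscle markers were above background in every WT group, as in a whole uterus. The part of stromal RNA in the fall of Hpgd, Ptger4 and Ptgfr was not tested.

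Of 52 other genes listed for the pathway, 49 were measured. They include Alox5ap and Alox15 of the lipoxygenase branch, so counts of the 49 are not of prostaglandin genes alone. At 2 h of E2 in WT 7 of the 49 rose and 5 fell, where 19% of all genes were called. The median change of the 49 was -0.11, beside -0.09 over all genes. Slco2a1, the transporter that takes prostaglandins into cells, rose from 7.11, 7.82 and 7.83 to 10.73, 9.90 and 10.65, by 2.84 ± 0.35 (limma adjusted p = 1.92e-06), and read 7.73, 8.23 and 8.05 at 24 h. In KO it read 7.89, 8.39 and 6.60 at 2 h of E2, and KO minus WT its response differed by -2.07 ± 0.49 (limma adjusted p = 0.00878). Pla2g4a, the cytosolic phospholipase that frees arachidonic acid, fell in WT at 2 h of E2 from 9.80, 10.44 and 9.65 to 9.10, 8.88 and 8.43, by 1.16 ± 0.29 (limma adjusted p = 0.00477). Its arrays in KO stayed at 10.64, 10.70 and 10.59, so that KO was 3.58-fold higher (limma adjusted p = 4.48e-05). Plaa, a phospholipase-activating protein, rose by 1.29 (limma adjusted p = 5.78e-05), and Mgll, a lipase that frees arachidonic acid from an endocannabinoid, by 1.02 (limma adjusted p = 0.0151). Ptges3, the cytosolic PGE2 synthase and Hsp90 cochaperone p23, rose by 1.02 (limma adjusted p = 0.00288). Ptgr2, a prostaglandin reductase, fell by 0.90 (limma adjusted p = 0.000219).

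In WT at 24 h of E2 14 of the 49 rose and 3 fell, where 30.1% of all genes were called, with a median of 0.19 beside -0.10 over all genes. Ptgr1, which reduces the first breakdown product of Hpgd, rose from 8.32, 7.94 and 7.71 to 9.63, 9.95 and 9.74, by 1.78 ± 0.24 (limma adjusted p = 3.9e-06). Akr1b8, an aldo-keto reductase, rose by 2.16 (limma adjusted p = 7.7e-06), and Alox5ap, the helper protein of 5-lipoxygenase, by 2.03 (limma adjusted p = 0.00692). In KO at 24 h of E2 none of the 49 was called (0% of all genes called). The E2 responses of Ptgr1, Akr1b8 and Alox5ap at 24 h differed, KO minus WT, by -1.64 (limma adjusted p = 0.00123), -2.27 (limma adjusted p = 0.000582) and -2.33 (limma adjusted p = 0.0353). IGF1 at 24 h raised Ptgr1 in WT by 1.31 (limma adjusted p = 0.00343) and in KO by 1.75 (limma adjusted p = 8.52e-05; to 10.73, 9.72 and 10.57), and Akr1b8 in WT by 1.46 (limma adjusted p = 0.00793) and in KO by 2.27 (limma adjusted p = 7.92e-05). In KO at 24 h of IGF1 6 of the 49 rose and 2 fell (13.6% of all genes called), Alox15 among the former by 2.40 (limma adjusted p = 0.000982), Pla2g4a by 1.22 (limma adjusted p = 0.0054) and the PGE2 receptor gene Ptger3 by 1.23 (limma adjusted p = 0.0321), whose arrays overlapped. In WT at that time 3 rose and none fell (4.28%).

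Of the 49, 6 rose and 3 fell in WT at 2 h of IGF1, where 17.2% of all genes were called, with Plaa up by 1.61 (limma adjusted p = 1.38e-05), Ptges3 up by 1.30 (limma adjusted p = 0.000419) and Akr1c14 down by 1.67 (limma adjusted p = 0.00026). In KO, where 7.13% of all genes were called, none rose and 1, Ptgdr, fell. The 1 of the 49 called in KO at 2 h of E2 (0.365% of all genes called) was Abcc4, a prostaglandin exporter. It rose from 6.64, 6.60 and 6.77 to 9.53, 8.64 and 7.73, by 1.96 ± 0.38 (limma adjusted p = 0.0194). With only the compared groups fitted, 7 of all genes were called in that comparison, against 110.

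Between genotypes under vehicle 2 of the 49 were called (2.92% of all genes), Ptgdr higher and Akr1c14 lower in KO. Akr1c14, a steroid-converting aldo-keto reductase of the family that includes PGF synthases, read 8.40, 9.02 and 9.19 in WT vehicle and 6.90, 5.44 and 5.63 in KO vehicle, where 1 array was above background, a difference of 2.88 ± 0.29 (limma adjusted p = 3.56e-06). At 2 h of E2 it rose in WT by 2.09 (limma adjusted p = 1.01e-05) and was at background on all KO arrays, so WT was at least 32.8-fold higher (limma adjusted p = 5.99e-13). Between genotypes 11 of the 49 were higher and 4 lower in KO at 2 h of E2 (17.9% of all genes called), 11 and 16 at 24 h of E2 (47%), 1 and 1 at 2 h of IGF1 (1.95%), and 4 and 1 at 24 h of IGF1 (2.86%). The counts at 24 h of E2 in WT, at 2 h of IGF1 in WT and at 24 h of IGF1 in KO lay near the shares of all genes. So did those between genotypes under vehicle and at 24 h of E2. These counts say little about the pathway.

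**Figure D5:**
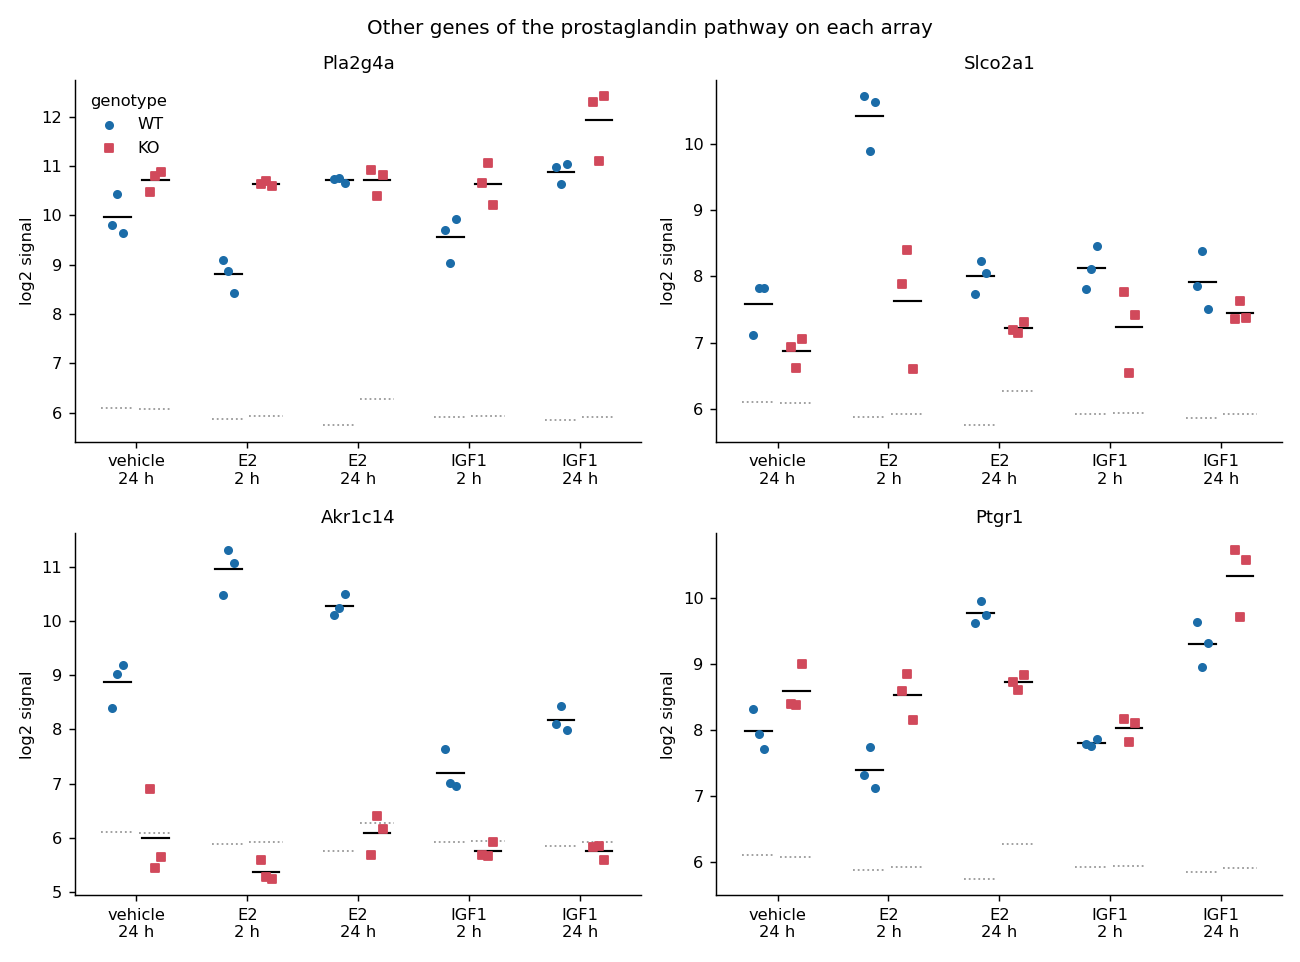
Log2 signal of Pla2g4a, Slco2a1, Akr1c14 and Ptgr1 on each of 30 arrays by treatment, for WT (circles) and KO (squares); black bars are group means and dotted lines the mean background of each group. Slco2a1 stands apart in WT at 2 h of E2 (10.42), Akr1c14 in KO lies at or near background throughout, and Ptgr1 is highest in KO at 24 h of IGF1 (10.34).

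For the 6 members whose group means spanned at least 2 units, the genes with the most similar pattern over the 10 group means were listed by Pearson's r among 6341 genes that spanned at least 1 unit. The points share groups and arrays, the highest values of so many genes are high by selection, and no test is attached. For Hpgds they were Peg3os (r = 0.963), Tm4sf1 (0.937) and Zxdb (0.900), each with a span of 2.21 or less beside 5.98. For Ptges they were Wwc2 (0.971), Uchl4 (0.963) and Prrx2 (0.962), for Ptgs2 Ucn2 (0.960), Cxcl1 (0.954) and Fst (0.941), and for Hpgd Zfp386 (0.976), Dcaf17 (0.963) and Bmf (0.961). For Ptger2 they were Slain1 (0.984), Bcl11a (0.982) and Ttll10 (0.978), and for Ptgfr Zfp760 (0.976), Il15 (0.974) and Cep83os (0.967).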

How the data were processed

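The deposited table holds 72688 probe sets on 30 arrays as log2 values, per the values themselves, which reach 19.9; no source used here gives the authors' background correction, normalization or software, so their effect on low values was not tested. Per the labels, 300 ng of RNA per sample was amplified with the Affymetrix WT Plus kit. Probe sets with 1 gene symbol in GEO's platform annotation (30604) gave 30142 genes; 2146 name several genes and 39938 are not listed. For a gene with several probe sets (355 genes) the brightest was used, and each member had 1. Group means were fitted on all 30 arrays with limma 3.58.1 in R 4.3.3 (lmFit, eBayes), which was tested on simulated data, and p-values were adjusted by Benjamini-Hochberg over all genes of a comparison. A fold is "at least" where the dimmer group has no array above background, whose level stands in for it. The number of arrays limits the precision.

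The members, gene lists and tests were chosen with earlier results of these data known. The design counted 9 members besides Hpgds; 8 were measured. Named are all members, up to 3 called genes of largest change per pathway list in a comparison described, up to 2 per marker list, 3 genes of like pattern, and Esr1 and Xist. Alternatives were centring, quantile normalization, a filter on dim genes, averaged probe sets, the compared groups alone, a trended robust prior, array weights, a replicate block, and leaving out arrays. Sequences are RefSeq's (GRCm38.p6).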

Additional observations from a re-analysis of the deposited data

Results flagged for a closer look

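The E2 response at 2 h differed between the genotypes by the test of the difference itself for 4 members. KO minus WT, the difference was -2.96 for Ptges, 2.82 for Hpgd, 1.68 for Ptger4 and 1.57 for Ptgfr. In each case WT changed and no change was called in KO.

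The change from 2 h to 24 h of E2 differed between the genotypes, KO minus WT, by 6.10 for Hpgds, 0.47 for Ptgds, 3.28 for Ptges, -2.61 for Hpgd and -1.41 for Ptger4. This comparison was chosen after the values were seen. Ptgds lies near background, and its call was lost after centring (0.34, limma adjusted p = 0.0819) or quantile normalization (0.27, 0.174), without the 2 arrays of lowest weight (0.36, 0.0793), with only the compared groups fitted (0.47, 0.0796) and without any of 7 single arrays: the first or the third WT E2 2 h replicate, the first or second of KO E2 2 h, the second or the third of WT E2 24 h, or the second of KO E2 24 h (0.36 to 0.50, limma adjusted p of 0.0512 to 0.136). The Hpgd call was lost under quantile normalization (-2.14, limma adjusted p = 0.0552) and without the first KO E2 2 h replicate (-2.19, 0.0518).

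Hpgds at 2 h of E2 lay above every vehicle array in WT and below every vehicle array in KO, a difference between the changes of -4.19. That difference was not tested, because the vehicle arrays were used to choose the gene.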

How the results depend on the processing

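Of 213 changes of members that were tested, 53 were called, and 29 of these were called under every alternative; none of the 53 reversed its direction. The 29 include Ptges and Hpgd in WT at 2 h of E2, the Ptges, Ptger4 and Ptgfr differences in E2 response at 2 h, and Ptger2 between genotypes under E2 and at 24 h of IGF1. The trended robust prior and averaged probe sets changed no call. No pairing of the arrays by replicate number was seen, which does not exclude one. Over 135 pairs, same-numbered arrays deviated from their group means with r of -0.29 to 0.43 (median 0.008, and -0.0003 for other pairs). Of 30 arrays 12 were closest to their own number. With the replicate block, Hpgd in KO at 24 h of IGF1 was no longer called (-1.69, limma adjusted p = 0.0508; 0 of 8 members there) and Ptger4 in KO against WT at 2 h of IGF1 was (-0.84, limma adjusted p = 0.0458). With only the compared groups fitted, Hpgds in KO from 2 h to 24 h of E2 was 3.03 and not called (limma adjusted p = 0.0984), and the members called were 0 for KO IGF1 2 h, KO against WT under vehicle and at 2 h of IGF1, KO E2 against IGF1 at 2 h and KO IGF1 24 h against 2 h, 1 for KO E2 against IGF1 at 24 h, 2 for KO IGF1 24 h and WT E2 against IGF1 at 24 h, and 5 for KO against WT at 24 h of IGF1. Centring gave 0 for KO IGF1 24 h and WT E2 against IGF1 at 24 h and 1 for KO against WT under vehicle. Array weights gave 3 for WT E2 24 h, 5 for KO against WT at 24 h of IGF1, 1 for the difference in E2 response at 24 h and 2 for WT E2 against IGF1 at 24 h. Removing dim genes gave 2 for WT E2 24 h, 1 for WT IGF1 24 h and 2 for KO E2 against IGF1 at 2 h. Without the first WT vehicle and second KO E2 24 h replicates the counts were 1 for KO against WT under vehicle, 2 at 24 h of E2, and 2 for KO E2 against IGF1 at 2 h; quantile normalization gave 2 for KO against WT at 24 h of E2. Leaving out 1 array at a time gave 0 to 1 for WT E2 24 h, WT IGF1 24 h, KO IGF1 24 h, the difference in E2 response at 24 h and WT E2 against IGF1 at 24 h. It gave 1 to 5 for KO IGF1 2 h, 1 to 2 for KO against WT under vehicle and at 24 h of IGF1, 2 to 4 at 24 h of E2, 0 to 4 for KO E2 against IGF1 at 2 h, 1 to 3 for WT IGF1 24 h against 2 h and 0 to 3 for KO IGF1 24 h against 2 h. Without the third KO IGF1 2 h replicate 5 members were called against vehicle and 4 against E2. The cause of these shifts was not tested. Over all genes, the fit on compared groups called 4 against 2839 for KO E2 24 h against 2 h, 131 against 2707 for KO IGF1 24 h against 2 h, 0 against 2150 for KO IGF1 2 h, 0 against 916 for KO E2 against IGF1 at 2 h, 24 against 589 and 211 against 879 for KO against WT at 2 h of IGF1 and under vehicle, 7 against 110 for KO E2 2 h, 136 against 1291 for WT IGF1 24 h, 3338 against 5178 for WT IGF1 2 h, 3288 against 6468 for KO E2 against IGF1 at 24 h, 4046 against 6672 for the difference in E2 response at 24 h and 0 against 4 for that in IGF1 response at 2 h. Array weights called 9266 against 5731 for WT E2 2 h, 8595 against 5178 for WT IGF1 2 h, 3946 against 1291 for WT IGF1 24 h, 2444 against 879 and 2536 against 862 for KO against WT under vehicle and at 24 h of IGF1, 4626 against 2412 for the difference in E2 response at 2 h, 3893 against 1679 and 5495 against 3037 for WT E2 against IGF1 at 2 h and 24 h, 6904 against 4375 for WT IGF1 24 h against 2 h, and 8 against 4 and 18 against 2 for the difference in IGF1 response at 2 h and 24 h. For KO E2 24 h against 2 h the count was 1646 after centring, 1109 after quantile normalization, 1374 without dim genes, 1886 with array weights and 378 without the 2 arrays named, against 2839. Without them it was also 235 against 110 for KO E2 2 h, 728 against 1291 for WT IGF1 24 h, 925 against 589 for KO against WT at 2 h of IGF1, 1 against 2 for the difference in IGF1 response at 24 h and 4061 against 6672 for the difference in E2 response at 24 h. The difference in IGF1 response at 2 h gave 7 without dim genes and 0 after quantile normalization, against 4, and KO E2 24 h gave 1 after centring or quantile normalization, against 0. Leaving out 1 array at a time gave 99 to 3771 for KO E2 24 h against 2 h, 34 to 2922 for KO E2 against IGF1 at 2 h, 310 to 3900 for KO IGF1 2 h, 28 to 332 for KO E2 2 h, 0 to 38 for KO E2 24 h, 278 to 1343 for WT IGF1 24 h, 470 to 844, 270 to 956 and 352 to 860 for KO against WT under vehicle, at 2 h and at 24 h of IGF1, 1583 to 2626 and 3305 to 6423 for E2 against IGF1 at 24 h in WT and KO, 1483 to 3241 for KO IGF1 24 h against 2 h, 2544 to 3591 (against 4107) for KO IGF1 24 h, and 0 to 8 and 1 to 9 for the difference in IGF1 response at 2 h and 24 h. Centring moved the median of all genes by -0.19 to 0.11 between comparisons. Ptgds in all groups and Ptgs2 in WT lie near background, which limits what their differences can show.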
